A study of Homo sapiens with 4 samples.

Results

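This section describes 10 transcription regulators of lymphoid development, quiescence and memory-like state in the human natural killer (NK) cell line NK-92: TCF7, LEF1, TOX, TOX2, ZBTB16, ID2, ID3, BACH2, ZEB2 and KLF2. They were chosen by symbol for those roles, and all 10 were found among the 61860 gene identifiers counted. Of these identifiers 17492 had enough reads to be tested, among them 8 of the 10 regulators; LEF1 and ZBTB16 had too few.

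NK-92 cells grow in medium with interleukin 2 (IL-2), the cytokine that sustains them. Total RNA was sequenced after removal of ribosomal RNA from the wild-type line (WT) and from an edited line, ΔOGT-ISS (dOGT-ISS in the titles). In the edited line CRISPR-Cas9 removed the intronic splicing silencer (ISS) of OGT, the enzyme that attaches the sugar O-GlcNAc to intracellular proteins; the deletion was made to sustain OGT expression. Each line gave 1 library with human IL-2 given 48 h before extraction and 1 with IL-2 given 24 h before it. The titles carry IL-2 only for the 24 h libraries, whereas the treatment label of every library names IL-2, and the times follow these labels. Both lines are NK-92, 1 edited line stands against 1 WT line, and a difference between them cannot be told apart from other differences between these lines. The labels name no separate cultures, so the p-values reflect only how these 4 libraries scatter, and that scatter may be technical. No condition was repeated, so the scatter is how far the line difference departs from being equal at 48 h and 24 h. A true dependence of the line difference on the IL-2 time cannot be told apart from it.

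NK cells are innate lymphocytes that arise from the same progenitors as T and B cells. TCF7 (which encodes TCF-1) and LEF1 are partners of β-catenin that mark stem-like and early lymphoid cells, and TOX and TOX2 are HMG-box proteins required or supportive for NK cell development. ID2 and ID3 lack a DNA-binding region and hold E proteins such as TCF3 away from their CANNTG sites (E-boxes); ID2 is needed for NK cells to form. ZEB2 is an E-box-binding repressor that promotes terminal NK maturation, BACH2 a repressor that holds lymphocytes in a less differentiated state, KLF2 a factor of quiescence and trafficking, and ZBTB16 (PLZF) a BTB zinc finger protein of innate-like lymphocytes.

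The 48 h libraries held 10889986 (WT) and 11305599 (ΔOGT-ISS) counts and the 24 h libraries 24809269 and 28576566. Levels below are in CPM, counts scaled to library size after TMM (trimmed mean of M values, edgeR's correction for library composition), unless FPKM, which also divides by transcript length, is named. OGT itself stood at 399 CPM (ΔOGT-ISS) and 446 CPM (WT) in the 48 h pair of libraries and at 384 and 449 CPM in the 24 h pair. In the libraries labelled ΔOGT-ISS it was thus no higher than in WT (log2 difference -0.19, SE 0.16, edgeR adjusted p = 0.862). A gene-level count mixes spliced and intron-retaining OGT transcripts, so it is no check of the deletion. Of 12 NK markers 11 were tested, and their summed level was 2118 to 4209 FPKM, with KLRB1 at 0, 0, 3 and 2 counts. Between the lines 1 of the 11 passed, where 0.463% of all tested genes did. TYROBP, an adaptor of activating NK receptors, fell by 2.74 in log2 (SE 0.34, edgeR adjusted p = 0.0242). It went from 6.43 CPM in WT to 1.31 in ΔOGT-ISS at 48 h and from 26.9 to 3.28 CPM at 24 h. Between the times 6 of the 11 were called higher at 24 h, where 15.0% of all tested genes were. With offsets for GC content and transcript length 3 of the 11 were, against 922 of all 17492 tested genes. Of 8 T cell markers 3 were tested (summed level 215 to 383 FPKM): CD3E was at 187 to 316 CPM, while CD4, CD5 and CD8A had at most 14 counts in a library. Of 5 B cell markers 2 were tested (7.59 to 10.03 FPKM), with PAX5 at 52.0 to 80.8 CPM. Of 8 myeloid markers 3 were tested (72.03 to 1393 FPKM). S100A9 stood at 584 (ΔOGT-ISS) and 779 CPM (WT) in the 48 h pair and at 38.9 and 290.0 CPM in the 24 h pair, but CD14 and LYZ had at most 5 counts. Of 6 markers of other innate lymphoid cells 2 were tested (2.29 to 3.70 FPKM). The part of these markers in the results below was not tested. In bulk RNA, fewer cells that express a gene and less of its RNA per cell cannot be told apart.

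The ΔOGT-ISS 48 h library held more low-level signal than its WT partner. It had a count for 31241 identifiers against 24644 in WT at 48 h, and 33200 and 34475 in the ΔOGT-ISS and WT libraries at 24 h. Over the 6507 genes averaging 0.3 to 1 CPM, the mean level at 48 h was 0.751 CPM in ΔOGT-ISS and 0.525 in WT, a ratio of 1.43, against 0.930 at 24 h. Over the 3309 genes averaging 1 to 3 CPM it was 1.14 (0.945 in the 24 h pair), and over 2250 genes averaging 3 to 10 CPM it was 1.05 at 48 h. This bears on the scarce regulators below, and its part in their values was not tested.

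Promoters were taken from RefSeq (GRCh38.p14), where 8 of the 10 regulators matched; TOX and ZBTB16 did not. The stretches shown are the 250 bases before the annotated start of the 3 tested regulators that passed the test between the IL-2 times (ID2, ID3, TOX2) and of KLF2, which had the largest fitted difference between the lines. Capitals mark an E-box (CANNTG) in ID2 and TOX2, the motif TTCNNNGAA bound by the STAT factors downstream of IL-2 in ID3, and GC boxes (GGGCGG or its reverse complement) in KLF2. Both strands were searched, and the motif letters were chosen with the values below known.
ID2 promoter, chr2:8681806-8682055, plus strand: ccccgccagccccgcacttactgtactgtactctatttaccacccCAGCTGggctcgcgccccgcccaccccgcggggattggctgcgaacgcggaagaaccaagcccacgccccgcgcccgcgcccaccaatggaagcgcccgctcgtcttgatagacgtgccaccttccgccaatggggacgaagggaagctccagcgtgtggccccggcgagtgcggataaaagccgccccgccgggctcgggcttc
ID3 promoter, chr1:23559502-23559751, minus strand: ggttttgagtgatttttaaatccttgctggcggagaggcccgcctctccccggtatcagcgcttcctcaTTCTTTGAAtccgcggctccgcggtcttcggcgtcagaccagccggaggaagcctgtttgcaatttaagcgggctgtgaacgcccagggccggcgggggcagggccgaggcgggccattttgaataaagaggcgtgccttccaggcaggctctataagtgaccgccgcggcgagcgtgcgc
TOX2 promoter, chr20:43915880-43916129, plus strand: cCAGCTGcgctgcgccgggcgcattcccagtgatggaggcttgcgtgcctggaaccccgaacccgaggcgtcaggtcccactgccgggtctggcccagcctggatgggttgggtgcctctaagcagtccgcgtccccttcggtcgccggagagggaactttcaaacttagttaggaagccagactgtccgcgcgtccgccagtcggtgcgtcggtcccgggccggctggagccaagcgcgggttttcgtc
KLF2 promoter, chr19:16324576-16324825, plus strand: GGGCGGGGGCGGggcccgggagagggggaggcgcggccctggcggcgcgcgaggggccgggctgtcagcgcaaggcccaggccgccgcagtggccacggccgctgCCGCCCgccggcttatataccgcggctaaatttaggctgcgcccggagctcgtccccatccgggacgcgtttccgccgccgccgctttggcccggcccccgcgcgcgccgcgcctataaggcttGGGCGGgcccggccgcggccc
The ID2 and TOX2 windows each held 1 E-box, and in both the letters were CAGCTG; its first base lay at -205 in ID2 and -249 in TOX2, counted from the start. Over 27305 human promoter windows of the same length (250 bases before to 50 after the start), 68.9% held CANNTG. ID3 held TTCTTTGAA at -181, a motif present in 7.88% of windows, and it overlapped a TCF/LEF core, CTTTGA at -179, present in 13.1%. KLF2 held 6 GC boxes, 4 of them in the stretch shown and 2 after the start, where 44.6% of windows held at least 1, and its window was 80.7% G or C. GC boxes also stood in the windows of BACH2 (3), LEF1 and ID2 (2 each) and TCF7 (1), and an E-box in those of TCF7, LEF1 and ZEB2. The search also took in GGCGCC of SMAD factors (in 19% of windows), CCGGAA of ETS factors (17.6%), the ZEB-type E-box CACCTG (20.6%), the TATA box as TATAAA (12%) and the cAMP element as TGACGTCA (1.98%). TCF7 held the first 4 of these once each, and BACH2 held an ETS core and the cAMP element. A match describes the letters of the window and says nothing on binding in these cells.

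On the FPKM scale, which allows levels of different genes to be compared, the 10 regulators are described in 3 tiers. ID2 averaged 173 FPKM over the 4 libraries (136 to 210.4), TOX2 84.1 (54.2 to 119.8) and TOX 61.2 (48.6 to 82.0). ID2 was above TOX2 in all 4 libraries and their ranges did not overlap, whereas the ranges of TOX2 and TOX did. The middle tier held ID3 at 11.2 FPKM (4.35 to 17.0), ZEB2 at 3.20 (2.36 to 5.04), TCF7 at 2.00 (1.17 to 2.42) and KLF2 at 1.77 (1.01 to 3.12), and neighbours in that order overlapped in range. BACH2 (0.155 FPKM), LEF1 (0.104) and ZBTB16 (0.0475) formed the bottom tier. Gaps without overlap separated TOX from ID3 and KLF2 from BACH2, and also ID2 from TOX2 within the top tier. Among protein-coding genes, ID2 stood at the 97.8th to 98.8th percentile of FPKM within each library and TCF7 at the 53.7th to 56.4th.

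**Figure D1:**
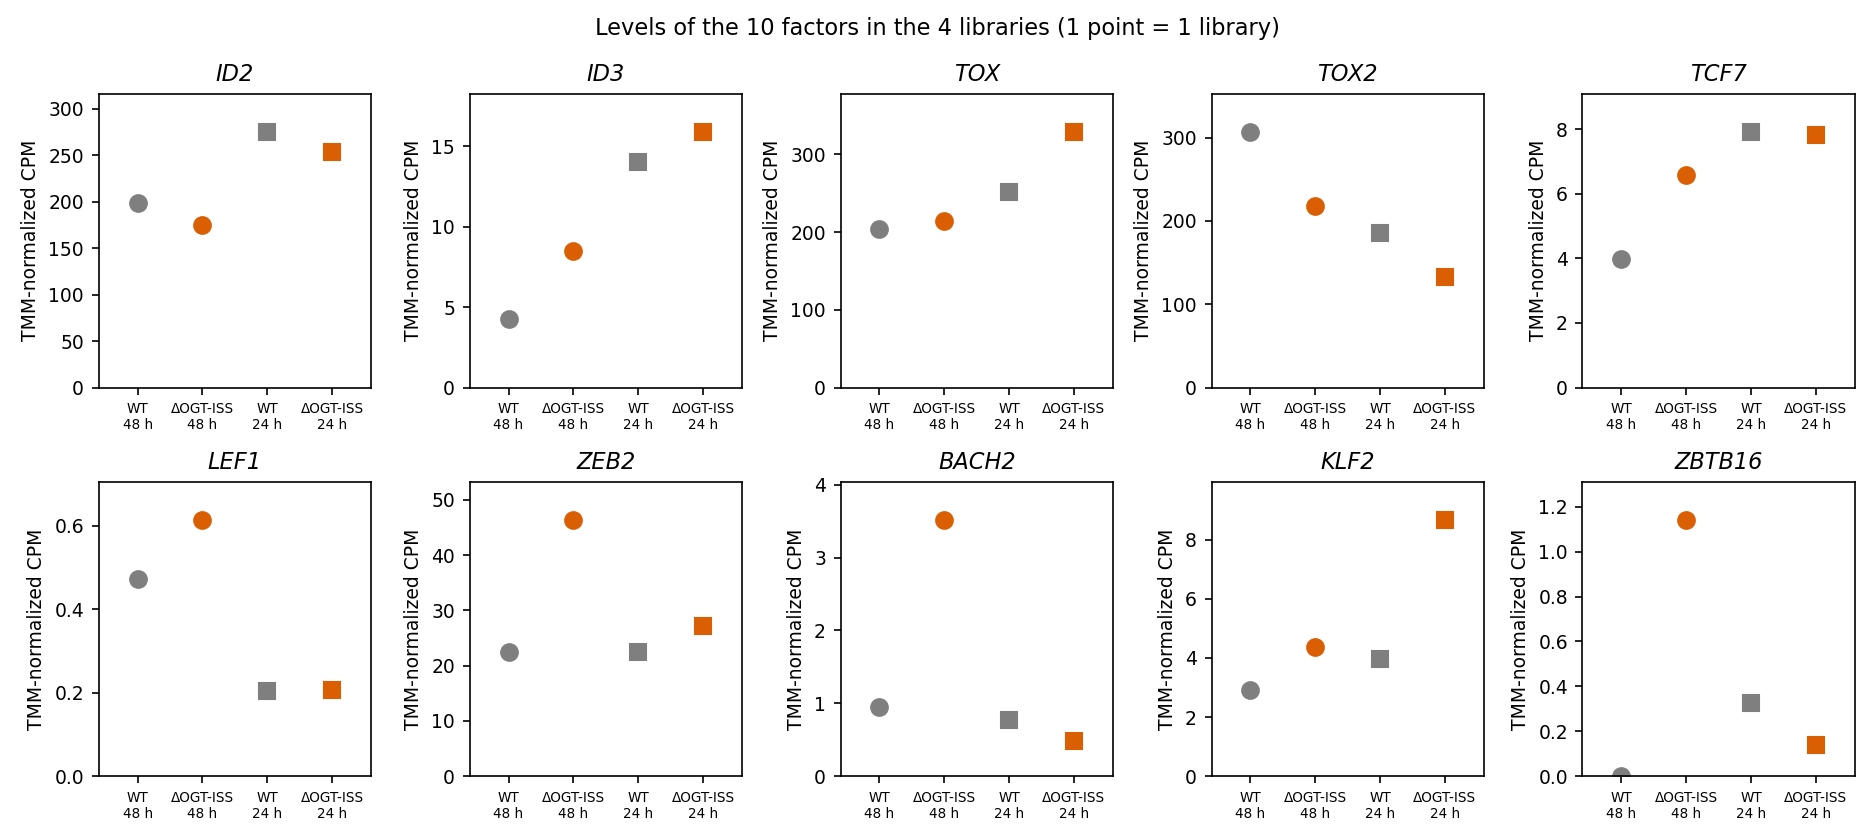
Level of each of the 10 regulators in each of the 4 libraries, in TMM-normalized CPM on the vertical axis (each panel has its own scale starting at 0); 1 point is 1 library. TOX2 was lower in ΔOGT-ISS than in WT at both times and lower at 24 h than at 48 h, while ID2 and ID3 were higher at 24 h in both lines.

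Between the lines, KLF2 and ZEB2 were higher in both ΔOGT-ISS libraries than in both WT libraries, and TOX2 was lower in ΔOGT-ISS at both times, but no difference passed the test. None of the 8 tested regulators passed the edgeR quasi-likelihood test at an adjusted p under 0.05, where 0.463% of all tested genes did (81 of 17492). At an unadjusted p under 0.05 there were 2 of 8, TOX2 and ZEB2, against 9.08% of all genes (1589). DESeq2 called 303 of 17492 genes and 0 of the regulators. Limma with a filter on low values called 0 of all genes, so it could call no regulator. Without that filter limma called 855 of 42859 genes and 0 of the regulators. Fitted log2 differences, ΔOGT-ISS minus WT, were positive for 6 and negative for 2 regulators, with a median of 0.43 against 0.02 over all genes tested. The largest was 0.87, for KLF2, and 14.1% of tested genes had a difference of at least that size. With 1 library per line at each time, a ratio at 1 time has no test, and its 95% interval covers counting error only.

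TOX2, an HMG-box factor that promotes NK maturation, stood at 218 CPM (ΔOGT-ISS) and 307 CPM (WT) in the 48 h pair of libraries and at 133 and 186 CPM in the 24 h pair. It was lower in ΔOGT-ISS at both times, and the ratios were nearly equal, 0.709 (0.673 to 0.747) and 0.714 (0.684 to 0.745). The lines nonetheless overlapped, because WT at 24 h lay below ΔOGT-ISS at 48 h. The fitted log2 difference was -0.49 (SE 0.15, edgeR adjusted p = 0.316). Its paralog TOX stood at 214 CPM (ΔOGT-ISS) and 204 CPM (WT) in the 48 h pair of libraries and at 329 and 251 CPM in the 24 h pair. The 48 h ratio was 1.05 (0.992 to 1.12) and the 24 h ratio 1.31 (1.27 to 1.36), with a fitted log2 difference of 0.23 (SE 0.16, edgeR adjusted p = 0.822). The ΔOGT-ISS 24 h library was the highest of the 4 for TOX. Opposite the TOX start lies TOX-DT, a divergent transcript, at 16.5, 27.6, 21.8 and 24.7 CPM (ΔOGT-ISS and WT at 48 h, then at 24 h). These rest on 188, 292, 631 and 607 counts. Of 9 antisense or divergent partners sought by symbol, 5 were found and 2 tested, TOX-DT and ID2-AS1, and neither passed in either comparison.

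The ratio of TOX to TOX2 within a library, on the FPKM scale, was chosen after the values were seen, and it was higher in ΔOGT-ISS at both times. It was 0.602 in ΔOGT-ISS (0.569 to 0.636) and 0.405 in WT (0.384 to 0.428) at 48 h. At 24 h it was 1.51 (1.46 to 1.57) and 0.823 (0.792 to 0.855). TOX was therefore above TOX2 in 1 library only, ΔOGT-ISS at 24 h.

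KLF2, which keeps lymphocytes quiescent and drives the trafficking receptor S1PR1, stood at 4.38 CPM (ΔOGT-ISS) and 2.93 CPM (WT) in the 48 h pair of libraries and at 8.66 and 3.98 CPM in the 24 h pair. These rest on 50, 31, 251 and 98 counts. KLF2 was higher in ΔOGT-ISS at both times, and the lowest ΔOGT-ISS library exceeded the highest WT library. That margin was narrow and lay across times, 4.38 CPM at 48 h (50 counts) against 3.98 CPM at 24 h (98 counts). The 48 h ratio was 1.49 (0.936 to 2.42) and the 24 h ratio 2.17 (1.72 to 2.78). The fitted log2 difference was 0.87 (SE 0.39, edgeR adjusted p = 0.577). KLF2 was the 1 of 8 tested regulators past 2-fold between the lines at 24 h, where 3.82% of tested genes were past 2-fold higher, 7.02% lower and 10.8% in either direction. By the smallest distance between centred log2 CPM over the 4 libraries, among 9848 genes of at least 5 CPM, the genes most like KLF2 were IFFO2 (distance 0.212), RASGEF1A (0.214) and SCAND1 (0.216). These 3 were picked for likeness to KLF2 in the same libraries, so their peak in ΔOGT-ISS at 24 h is not a separate result. IFFO2 was at 10.3, 5.87, 20.1 and 9.55 CPM in the order ΔOGT-ISS and WT at 48 h, then at 24 h.

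ZEB2, the repressor that promotes late NK maturation, stood at 46.3 CPM (ΔOGT-ISS) and 22.5 CPM (WT) in the 48 h pair of libraries and at 27.1 and 22.5 CPM in the 24 h pair. The lines did not overlap, and the ΔOGT-ISS 48 h library stood above the other 3. The 48 h ratio was 2.05 (1.76 to 2.40) and the 24 h ratio 1.20 (1.08 to 1.34). The fitted log2 difference was 0.64 (SE 0.23, edgeR adjusted p = 0.420). Of the transcripts that overlap ZEB2, ZEB2-AS1 and AC009951.2 on the opposite strand had 20, 0, 11 and 3 counts and 0, 0, 9 and 3 counts, and AC009951.1 within ZEB2 on the same strand had 50, 3, 52 and 20. These are raw counts, and the 24 h libraries were the deeper. Whether the counting used strand is not given in the sources used here, so reads of ZEB2 and of these transcripts cannot be told apart where they overlap.

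ID2, the E protein antagonist on which NK cells depend, stood at 175 CPM (ΔOGT-ISS) and 198 CPM (WT) in the 48 h pair of libraries and at 253 and 275 CPM in the 24 h pair. It was slightly lower in ΔOGT-ISS each time, with ratios of 0.885 (0.832 to 0.942) and 0.920 (0.890 to 0.951), and the lines overlapped across times (log2 difference -0.15, SE 0.15, edgeR adjusted p = 0.909). ID3 stood at 8.50 CPM (ΔOGT-ISS) and 4.26 CPM (WT) in the 48 h pair of libraries and at 15.9 and 14.0 CPM in the 24 h pair. Its 48 h ratio was 2.00 (1.39 to 2.91) and its 24 h ratio 1.13 (0.983 to 1.31) (log2 difference 0.54, SE 0.30, edgeR adjusted p = 0.712). The WT 48 h library was the lowest for ID3. ID2 exceeded ID3 on the FPKM scale by 15.0, 33.9, 11.7 and 14.4 times in ΔOGT-ISS and WT at 48 h and then at 24 h, a ratio also chosen after the values were seen.

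TCF7 stood at 6.57 CPM (ΔOGT-ISS) and 3.97 CPM (WT) in the 48 h pair of libraries and at 7.83 and 7.92 CPM in the 24 h pair, from 75, 42, 227 and 195 counts. The WT 48 h library was lowest and the lines were level at 24 h. The 48 h ratio was 1.65 (1.12 to 2.47) and the 24 h ratio 0.988 (0.813 to 1.20), with a fitted log2 difference of 0.33 (SE 0.36, edgeR adjusted p = 0.917). LEF1, its close relative, had 7, 5, 6 and 5 counts, which is 0.613, 0.473, 0.207 and 0.203 CPM. At this depth no difference in LEF1 between the lines was detectable, the 48 h ratio being 1.30 (0.354 to 5.18). TCF7 exceeded LEF1 on the FPKM scale in all 4 libraries, by 9.13 times (3.62 to 29.6) where the ratio was lowest and 42.4 times (17.9 to 132) where it was highest.

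BACH2 and ZBTB16 were scarce. BACH2 had 40, 10, 14 and 19 counts, or 3.51 CPM in ΔOGT-ISS and 0.946 in WT at 48 h, and 0.483 and 0.772 CPM at 24 h. The ΔOGT-ISS 48 h library stood apart from the other 3. The 48 h ratio was 3.71 (1.82 to 8.31) and the 24 h ratio 0.626 (0.290 to 1.32), with a fitted log2 difference of 0.61 (SE 0.91, edgeR adjusted p = 0.944). ZBTB16 had 13, 0, 4 and 8 counts. At 48 h its level in ΔOGT-ISS was 4.01 times the limit of 3 counts in the WT library, with the 13 counts taken as exact. The two-sided interval of the 48 h ratio, which allows for counting error, starts at 2.82. At 24 h its ratio was 0.425 (0.0936 to 1.58). For both genes the high library was the one with more low-level signal, where genes averaging 1 to 3 CPM, as BACH2 did, had a ratio of 1.14 at 48 h. In that library 1010 identifiers had at least 10 counts against 0 in WT at 48 h, against 182 the other way, and 30 and 55 at 24 h. BACH2 and ZEB2 were the 2 of 8 tested regulators past 2-fold higher between the lines at 48 h, where 14.6% of tested genes were (9.15% lower, 23.8% in either direction).

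**Figure D2:**
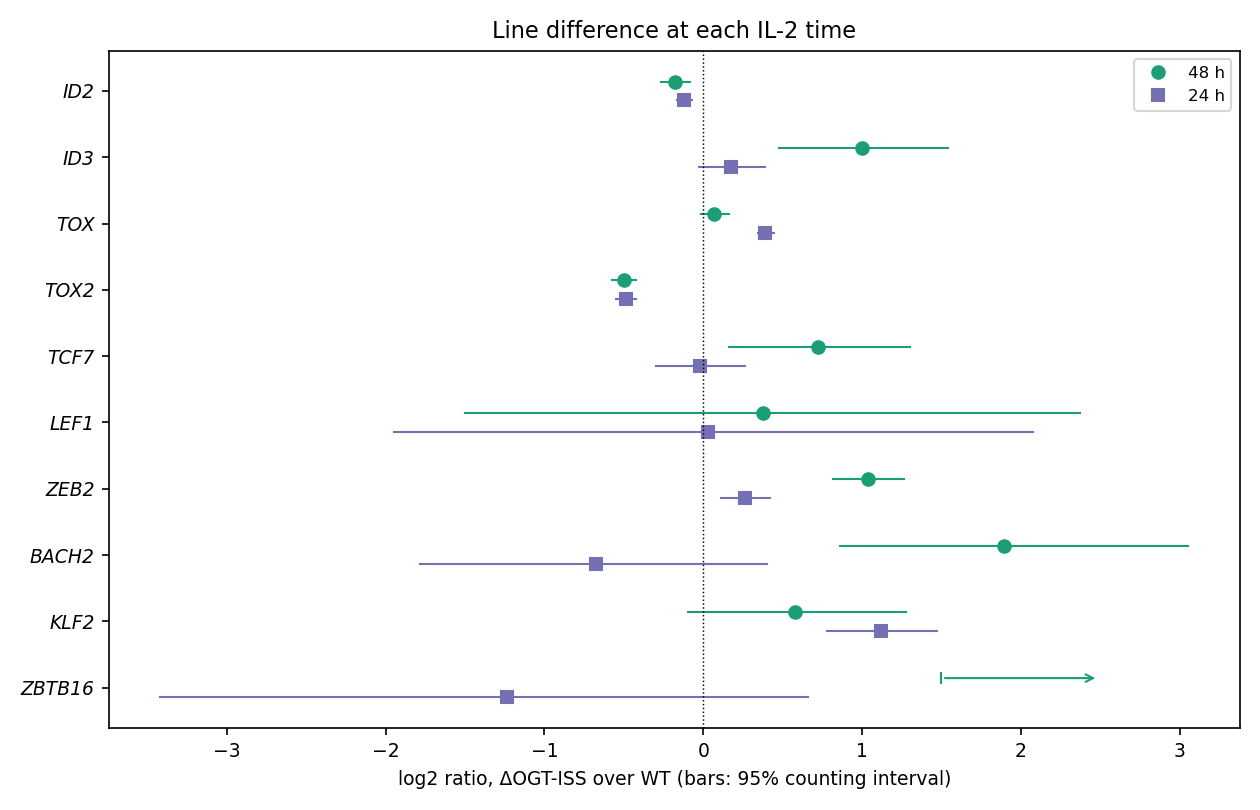
Log2 ratio of ΔOGT-ISS to WT for each regulator at 48 h and at 24 h; points are ratios of TMM-normalized counts between 2 libraries and bars are 95% counting intervals, and the dotted line marks no difference. TOX2 sat near -0.50 at both times, KLF2 was at 0.58 and 1.12, and BACH2 changed sides from 1.89 to -0.68. The arrow for ZBTB16 at 48 h, with 0 counts in WT, starts at the lower bound of its interval.

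The neighbourhoods of the regulators were compared as well. Over the 41 nearest expressed coding genes of each regulator, the median log2 difference between the lines lay between -0.13 around TOX2 (chromosome 20) and 0.14 around TOX (chromosome 8). Subtracting it left KLF2 (chromosome 19) at 0.88, ZEB2 (chromosome 2) at 0.54, ID3 (chromosome 1) at 0.51 and TOX2 at -0.37.

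Between the IL-2 times, the ID genes and TOX2 moved in opposite directions: ID3 was 2.44-fold and ID2 1.42-fold higher at 24 h than at 48 h, and TOX2 stood at 0.608 of its 48 h level. In all, 3 of the 8 tested regulators passed the edgeR test, where 25.9% of all tested genes did. ID2 and ID3 rose at 24 h relative to 48 h (2 of 8, with 15.0% of all genes called higher) and TOX2 fell (1 of 8, with 10.9% called lower). The median fitted log2 difference, 24 h minus 48 h, was 0.48 for the regulators and 0.07 for all genes. Calls over all genes were 2625 higher and 1910 lower, but 922 higher and 1272 lower with offsets for GC content and transcript length, and 3714 and 1183 with no filter on low counts. The time of IL-2 is carried by the same pairs of libraries as the depth, which was more than 2-fold greater at 24 h. The design therefore cannot tell the 2 apart. With the 24 h libraries thinned to 10889986 counts, 4516 genes were called between the times. Among them were TOX2 (-0.78) and ID3 (1.22), but not ID2 (0.47, edgeR adjusted p = 0.0538). GC content moved with the time difference: across 16884 genes, which are not independent replicates, the 2 correlated at Pearson r = 0.35 and Spearman rho = 0.47.

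ID3 moved in WT from 4.26 CPM at 48 h to 14.0 CPM at 24 h, and in ΔOGT-ISS from 8.50 to 15.9 CPM. Both 24 h libraries were above both 48 h libraries. The ratio of 24 h to 48 h was 3.29 (2.41 to 4.60) in WT and 1.87 (1.50 to 2.35) in ΔOGT-ISS, and ID3 was the 1 of 8 tested regulators past 2-fold in WT (23.6% of tested genes were past 2-fold higher, 38.2% in either direction). The fitted log2 rise was 1.29 (SE 0.31, edgeR adjusted p = 0.0193). The median over 1923 genes within 2 points of its GC content was 0.69, and with GC and length offsets ID3 stood at 0.77 and was no longer called (adjusted p = 0.122). Dropping the line term with all 4 libraries kept gave 1.22 and ended the call (edgeR adjusted p = 0.0808). Fits without 1 library drop that term as well. They gave 1.78 without the ΔOGT-ISS 48 h library and 0.81 to 1.31 without any of the others.

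ID2 moved in WT from 198 CPM at 48 h to 275 CPM at 24 h, and in ΔOGT-ISS from 175 to 253 CPM. The times did not overlap, and the ratios, 1.39 (1.33 to 1.46) in WT and 1.45 (1.38 to 1.52) in ΔOGT-ISS, had overlapping intervals. The fitted log2 rise was 0.51 (SE 0.15, edgeR adjusted p = 0.0460). This call lay at the threshold: DESeq2 gave 0.47 with an adjusted p of 0.0649, and GC and length offsets gave 0.21 with an adjusted p of 0.384. Dropping the line term with all 4 libraries kept ended it too (0.50, edgeR adjusted p = 0.0721). Fits without 1 library, which drop that term as well, gave 0.39 to 0.59. ID2-AS1, on the opposite strand, was at 2.08 CPM (48 h) and 4.14 CPM (24 h) in WT and at 1.14 and 2.17 CPM in ΔOGT-ISS. These rest on 22, 102, 13 and 63 counts, and the difference did not pass (edgeR adjusted p = 0.218).

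TOX2 moved in WT from 307 CPM at 48 h to 186 CPM at 24 h, and in ΔOGT-ISS from 218 to 133 CPM. Within each line the 24 h library was the lower, with ratios of 0.606 (0.579 to 0.634) and 0.610 (0.580 to 0.642), and both 24 h libraries were below both 48 h libraries. The fitted log2 fall was -0.72 (SE 0.15, edgeR adjusted p = 0.0128). Genes of like GC content went the other way, with a median of 0.77, and 7.59% of these 1885 genes lay below TOX2. With GC and length offsets the fall was -1.43 (adjusted p = 0.00185), and with no filter on low counts it was -0.50 and not called (adjusted p = 0.120). Dropping the line term with all 4 libraries kept also ended the call (-0.72, edgeR adjusted p = 0.0984). Fits without 1 library, which drop that term as well, gave -0.98 to -0.45. TOX was at 204 CPM at 48 h and 251 CPM at 24 h in WT, and at 214 and 329 CPM in ΔOGT-ISS, ratios of 1.23 (1.17 to 1.29) and 1.54 (1.47 to 1.61). The fit gave 0.46 in log2 (SE 0.16, edgeR adjusted p = 0.0761), and 0.73 with GC and length offsets, where it was called (adjusted p = 0.0228). The median of genes of its GC content was -0.31.

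The other 4 tested regulators did not pass. KLF2 had ratios of 24 h to 48 h of 1.36 (0.898 to 2.10) in WT and 1.98 (1.45 to 2.73) in ΔOGT-ISS, with a log2 difference of 0.72 (SE 0.39, edgeR adjusted p = 0.212) that turned to -0.50 with GC and length offsets (adjusted p = 0.445). The 749 genes of its GC content had a median of 1.22. TCF7 had ratios of 1.99 (1.42 to 2.85) in WT and 1.19 (0.914 to 1.57) in ΔOGT-ISS, and the fit gave 0.61 in log2 (SE 0.36, edgeR adjusted p = 0.245), or 0.10 with the offsets (adjusted p = 0.874). ZEB2 was level in WT, at 1.00 (0.859 to 1.17), and was at 0.586 (0.524 to 0.655) in ΔOGT-ISS. BACH2 had ratios of 0.816 (0.361 to 1.96) in WT and 0.138 (0.0692 to 0.259) in ΔOGT-ISS, where it was the 1 of 8 tested regulators past 2-fold (16.0% of tested genes were past 2-fold lower, 34.0% in either direction). LEF1, untested, had ratios of 0.429 (0.0988 to 1.87) and 0.337 (0.0937 to 1.17), and its intervals include 1. ZBTB16, untested, had a ratio of 0.121 (0.0288 to 0.392) in ΔOGT-ISS, from 13 counts at 48 h and 4 at 24 h.

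**Figure D3:**
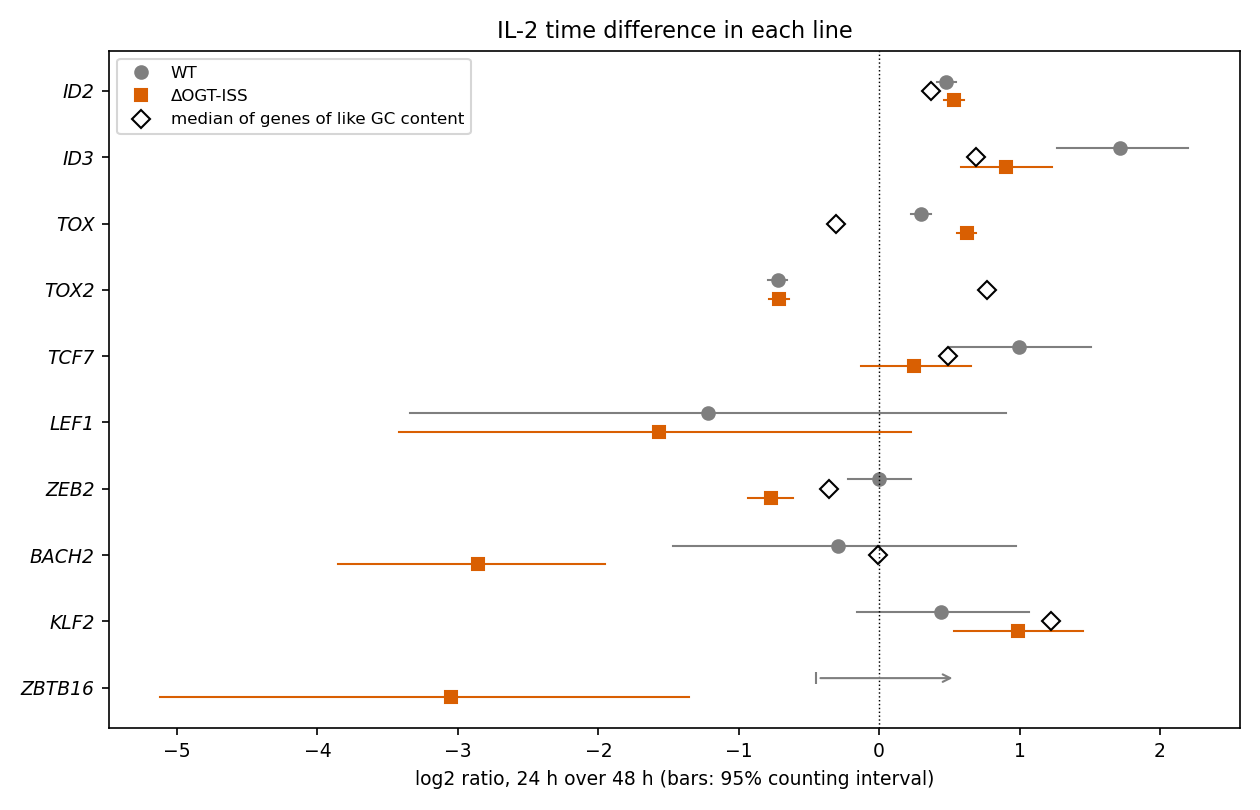
Log2 ratio of 24 h to 48 h for each regulator in WT and in ΔOGT-ISS, with 95% counting intervals; open diamonds give the median edgeR log2 difference of genes of like GC content. TOX2 lay to the left of its diamond (0.77) in both lines, and ID2 lay close to its diamond (0.37). The arrow for ZBTB16 in WT, with 0 counts at 48 h, starts at the lower bound of its interval.

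The genes that work with these regulators were followed in 8 lists that hold none of the 10. In these lists a rise or fall between the times is that of 24 h relative to 48 h. Of all tested genes 15.0% rose and 10.9% fell in that sense, and 0.463% passed between the lines. Partners of TCF7 and LEF1 and other genes of the Wnt pathway, by which β-catenin reaches TCF factors, did not pass between the lines (0 of 13 tested, median -0.16). Between the times 7 of 13 rose and 0 fell, with a median of 0.92 (15.0% of all tested genes rose, with a median of 0.07 over all). The co-repressors TLE3 and TLE5 rose by 1.48 (SE 0.17) and 1.43 (SE 0.16), the β-catenin cofactor gene PYGO2 by 1.38 (SE 0.18) and AXIN1, of the β-catenin destruction complex, by 1.60 (SE 0.16), all in log2 with edgeR adjusted p from 0.000843 to 0.00180. With GC and length offsets 3 of 13 rose, at a median of 0.43, and AXIN1 was no longer called (0.39, adjusted p = 0.126). TLE3 was counted at 97.2 and 302 CPM in WT and at 74.1 and 185 CPM in ΔOGT-ISS, so that both 24 h libraries lay above both 48 h libraries.

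The E proteins that ID2 and ID3 hold off, with other HLH genes, had 3 members tested, with a median of -0.01 between the times. TCF4 stood at -0.43 in log2 at 24 h relative to 48 h (edgeR adjusted p = 0.0786) and TCF12 at -0.01, and neither passed. TCF3 (E2A) rose between the times by 1.09 (SE 0.16, edgeR adjusted p = 0.00271), standing at 64.0 CPM (48 h) and 138 CPM (24 h) in WT and at 58.9 and 125 CPM in ΔOGT-ISS, but by 0.10 with GC and length offsets (adjusted p = 0.714). None passed between the lines (median -0.13). ID1, another ID gene, had 15, 3, 8 and 4 counts and was not tested. Of 3 tested relatives of TOX, TOX4 rose between the times by 0.58 (SE 0.16, edgeR adjusted p = 0.0322), and 0 of 3 passed between the lines. The TOX4 call was lost with DESeq2 (adjusted p = 0.0753), limma on log2(FPKM + 1) (0.0562), upper-quartile scaling (0.0514) and the line term dropped (0.0774). Fits without 1 library, which drop that term as well, gave 0.42 to 0.72.

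Relatives of ZEB2 and BACH2, together with the MAF partners of BACH proteins, had 7 members tested. None passed between the lines (median -0.04), and 3 of the 7 differences were above 0. ZEB1 was at 17.1 CPM (ΔOGT-ISS) and 37.3 CPM (WT) in the 48 h pair and at 16.2 and 33.1 CPM in the 24 h pair. Its fitted log2 difference was -1.08 (SE 0.19, edgeR adjusted p = 0.0754), opposite in sign to that of ZEB2. At 24 h relative to 48 h MAFK, a small MAF partner, rose by 2.16 (SE 0.25, edgeR adjusted p = 0.00123). With GC and length offsets its rise was 0.99 (edgeR adjusted p = 0.0457). NFE2L2 (NRF2), which competes with BACH proteins for MAF sites, fell by 0.97 (SE 0.19, edgeR adjusted p = 0.00838). Of 6 KLF relatives none passed between the lines (median -0.14). KLF16 rose by 2.38 (SE 0.24) and KLF13 by 0.61 (SE 0.16) at 24 h relative to 48 h. With GC and length offsets KLF13 turned to -0.12 and KLF16 was no longer called (0.84, edgeR adjusted p = 0.0746). KLF6 fell by 1.16 (SE 0.17, edgeR adjusted p = 0.00323), and by 1.09 with the offsets (adjusted p = 0.00756). Of 8 BTB zinc finger relatives of ZBTB16 none passed between the lines (median -0.13), whereas 3 rose and 2 fell between the times (15.0% and 10.9% of all tested genes did) and 1 rose and 3 fell with the offsets. ZBTB7B and ZBTB7A rose by 1.99 (SE 0.22) and 1.65 (SE 0.17), and ZBTB1 and BCL6 fell by 1.33 (SE 0.18) and 1.43 (SE 0.39); ZBTB7B was not called with the offsets (0.80, adjusted p = 0.0526). The BCL6 call was lost with DESeq2 (-1.47, adjusted p = 0.0691) and with limma on log2(FPKM + 1) (-0.76, adjusted p = 0.120). Dropping the line term ended it too (-1.46, edgeR adjusted p = 0.181). Fits without 1 library, which drop that term as well, gave -2.26 to -0.55, the latter without WT at 48 h.

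Genes of quiescence and lymphoid memory had 13 members tested, of which 1 passed between the lines, where 0.463% of all tested genes did. S1PR1, the sphingosine 1-phosphate receptor for leaving tissues and a known KLF2 target, stood at 39.8 CPM (ΔOGT-ISS) and 9.18 CPM (WT) in the 48 h pair and at 59.5 and 23.2 CPM in the 24 h pair. Both ΔOGT-ISS libraries were above both WT libraries. KLF2 itself did not pass between the lines, and its part in S1PR1 was not tested. The ratios were 4.34 (3.47 to 5.46) and 2.56 (2.33 to 2.82), and S1PR1 rose in ΔOGT-ISS by 1.71 in log2 (SE 0.23, edgeR adjusted p = 0.0333). The list as a whole had a median of -0.30 between the lines, with 4 of 13 above 0. Between the times 3 rose and 2 fell at 24 h relative to 48 h (median 0.06), against 15.0% and 10.9% of all tested genes. With GC and length offsets 3 rose and 1 fell. TXNIP, a brake on glucose uptake, rose by 2.10 (SE 0.28), and S1PR1 by 0.93 (SE 0.23), while the anti-proliferative gene BTG1 fell by 2.12 (SE 0.19) and FOXO1, a factor of resting lymphocytes, by 1.66 (SE 0.50, edgeR adjusted p = 0.0448, but 0.0726 with GC and length offsets).

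Lymphoid factors that act with these regulators were all tested (18 of 18), and 4 of them passed in the line comparison, IRF4 upward in ΔOGT-ISS and 3 downward (median -0.05), where 0.149% of all tested genes were called higher and 0.314% lower. IRF4 was at 91.4 and 165 CPM in ΔOGT-ISS against 41.7 and 70.0 CPM in WT, at 48 h and 24 h, and rose by 1.19 (SE 0.16, edgeR adjusted p = 0.0313). GATA3, a factor of lymphoid specification, was at 20.0 and 13.2 CPM in ΔOGT-ISS against 51.4 and 36.6 in WT and fell by 1.42 (SE 0.19, edgeR adjusted p = 0.0295). RUNX2 fell by 1.54 (SE 0.23, edgeR adjusted p = 0.0470) and IKZF1 (Ikaros) by 1.01 (SE 0.16, edgeR adjusted p = 0.0481). For all 3 both ΔOGT-ISS libraries lay below both WT libraries, RUNX2 at 49.3 and 15.8 CPM against 105 and 62.7. These 4 line calls and that of S1PR1 were lost in limma on log2(FPKM + 1), which called 0 of all genes (adjusted p = 0.432 for each). Its values were -1.22 for GATA3, -1.30 for RUNX2, -0.91 for IKZF1 and 1.58 for S1PR1, IRF4 was likewise above 0, and all 5 were called in limma with no filter on low values. The 5 edgeR calls were also lost when any 1 library was left out, where the fit holds the line term alone. Between the times 5 rose and 3 fell at 24 h relative to 48 h (median 0.07), against 15.0% and 10.9% of all tested genes. With GC and length offsets 2 rose and 4 fell. Without the offsets NFIL3, a factor needed for NK cells to form, fell by 1.95 (SE 0.16) and RUNX2 by 1.18 (SE 0.23). TBX21 (T-bet) and RUNX3 rose by 1.02 (SE 0.19) and 0.95 (SE 0.16). With the offsets TBX21 (0.18, adjusted p = 0.599) and RUNX3 (0.26, adjusted p = 0.290) were no longer called.

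**Figure D4:**
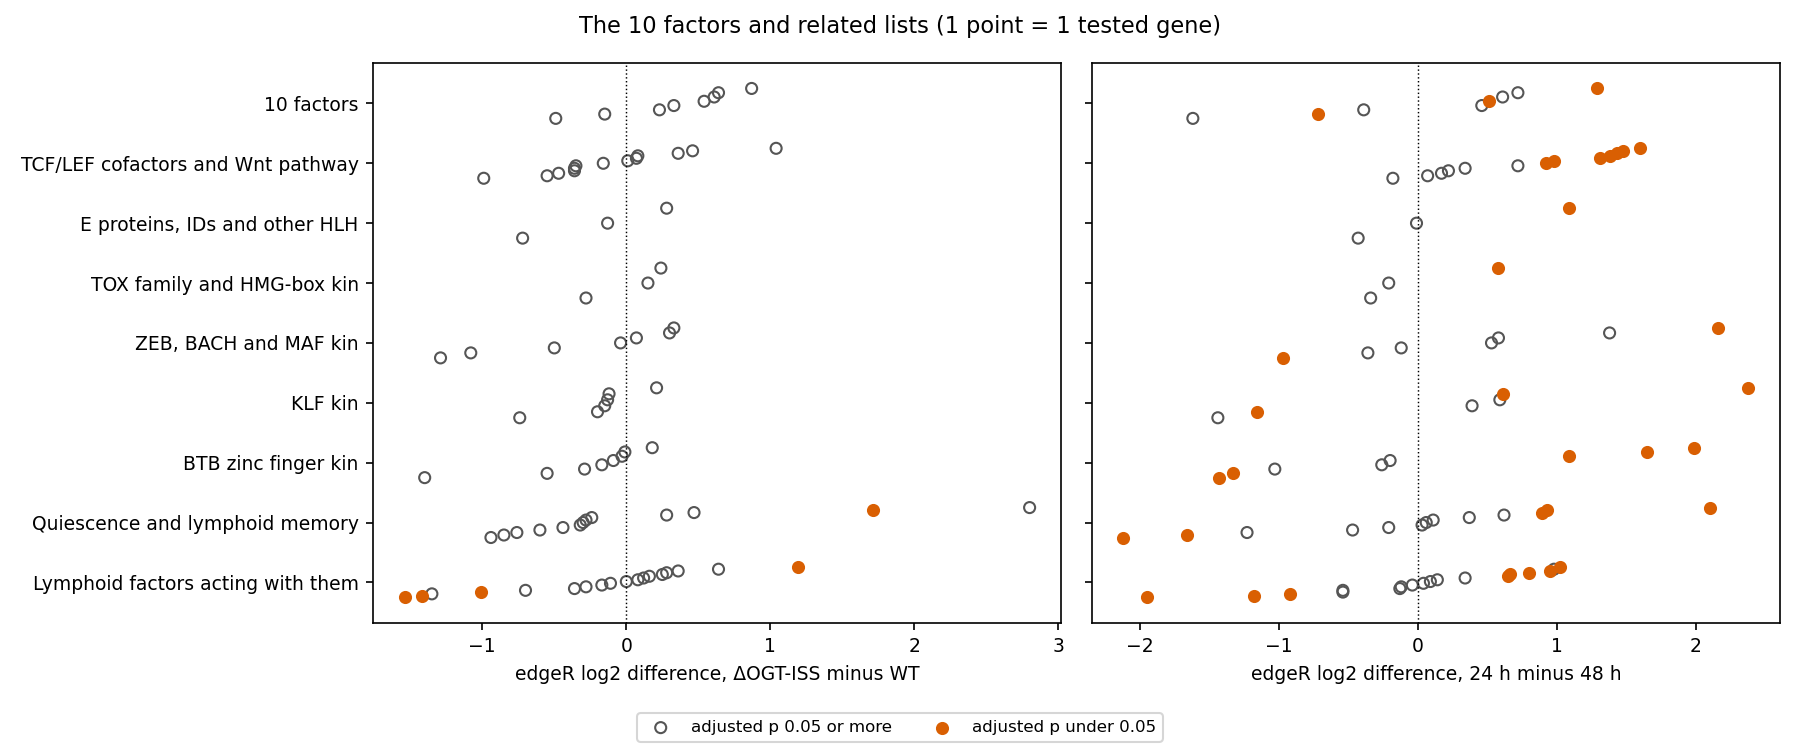
edgeR log2 difference of every tested gene among the 10 regulators and the related lists, between the lines (left) and between the IL-2 times (right); filled points passed the test at an adjusted p under 0.05. Between the lines the filled points are S1PR1 among the quiescence genes and IRF4, GATA3, RUNX2 and IKZF1 among the lymphoid factors, and none is among the 10 regulators.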

How the data were processed

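The members and the related lists were chosen with earlier results of these data known. Per the labels' protocols, total RNA was cleared of ribosomal RNA with RiboCop before CORALL V2 library preparation. The authors deposited raw counts, whole reads per Ensembl gene with no scaling. The submitters' processing notes name featureCounts 2.0.1, HISAT2 2.2.0, SAMtools 1.15.1 and the build hg38; annotation release, strand setting and use of molecular identifiers are not given there. The authors' deposited FPKM are the count over transcript length (in the same deposited table) and over summed counts, for 100% of 242688 values within 0.1%. Positions are from GENCODE 29 on GRCh38.

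Counts were tested in R 4.3.3 with the quasi-likelihood F test of edgeR 4.0.16: TMM, filterByExpr with a minimum count of 10, additive line and IL-2 time terms over all 4 libraries (1 residual degree of freedom, so no interaction can be tested), two-sided, Benjamini-Hochberg over 17492 genes, threshold 0.05. The SE is the absolute log2 difference over the square root of F. Ratios between 2 libraries have exact conditional binomial 95% intervals, for counting error only; a count of 0 allows 3 counts (0.263, 0.284, 0.103 and 0.122 CPM in ΔOGT-ISS and WT at 48 h, then at 24 h). The code was tested on simulated data. Named genes were all 10 regulators and, from each related list, members past the test, up to 4 in each comparison by size of change; otherwise the 2 largest line differences. ID1, TCF4, TCF12, ZEB1 and the partner transcripts were named outside that rule, after their values were seen. Replicates, numbered in accession order, are the 48 h (1) and 24 h (2) library of a line. Alternatives were DESeq2 1.42.0 and its size factors, upper-quartile factors, no low-count filter, limma 3.58.1 on log2(FPKM + 1) and log2(FPKM + 0.1), dropping a term, leaving out each library, thinning the 24 h libraries to 10889986 counts, and loess offsets for GC content and length (values for 96.5% of tested genes).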

Additional observations from a re-analysis of the deposited data

Results flagged for a closer look

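Among the 8 tested regulators, 3 had differences of opposite sign in the 2 settings in which the same contrast could be read. None of these differences was tested, since each setting has 1 library per condition, and the values are on the log2 scale. For TCF7 the line difference was 0.73 at 48 h and -0.02 at 24 h, a change of -0.74. BACH2, with 10 to 40 counts per library, had a line difference of 1.89 at 48 h and -0.68 at 24 h, a change of -2.57. For ZEB2 the difference between IL-2 times was 0.00 in WT, just above 0 before rounding, and -0.77 in ΔOGT-ISS, so the change was -0.77.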

How the results depend on the processing

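With 1 library per line and time, the tests rest on 1 residual degree of freedom, and fits without 1 library hold only the compared term. No member passed between the lines under any alternative. Between the IL-2 times the 3 called members (ID2, ID3, TOX2) became 2 (ID3, TOX2) with DESeq2, both other edgeR scalings, limma with its filter at either pseudocount, and thinning; 2 (TOX, TOX2) with GC and length offsets; 3 (TOX, ID2, ID3) with no filter; and 3 (TOX, TOX2, ID3) in limma without a filter, where TOX2 was at -0.69 (adjusted p = 0.000738). They were 0 with the line term dropped and 0 to 1 without 1 library: ID3 without ΔOGT-ISS replicate 1, BACH2 without WT replicate 1, none without either 24 h library. The no-filter fit moved the median time difference of the same genes by 0.22.

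Over all genes, the 81 called between lines were 154 with DESeq2 size factors, 546 with no filter, 303 with DESeq2, 855 in limma without a filter, and 0 in limma with its filter at either pseudocount (1340 and 1199 at an unadjusted p under 0.05) and with the IL-2 term dropped (242); leaving out 1 library gave 0 to 13 with edgeR (163 to 485 unadjusted). Between times 4535 became 2194 with the offsets and 570 to 3545 without 1 library.

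Some log2 differences turned sign in fits that leave out 1 library and with it the other term, so that the lines are compared across times or the times across lines. Between lines, over the 4 libraries left out, TCF7 ranged from -0.14 (without WT replicate 1) to 0.86, TOX from -0.08 (without ΔOGT-ISS replicate 2) to 0.52, ID2 from -0.43 to 0.08 and 0.12 (without ΔOGT-ISS replicate 1 and WT replicate 2), ID3 from -0.20 and -0.11 (without WT replicate 1 and ΔOGT-ISS replicate 2) to 1.52, and BACH2 from -0.84 (without ΔOGT-ISS replicate 1) to 2.03. Between times ZEB2 ranged from -0.90 to 0.11 (without ΔOGT-ISS replicate 1) and S1PR1 from -0.08 (without ΔOGT-ISS replicate 2) to 2.14, and the offsets turned KLF2 (-0.50) and KLF13 (-0.12). Of 404 values of named related genes under the alternatives, 295 kept direction and side of the threshold, 107 lost significance and 2 turned. Fits without 1 library that keep both terms leave no test, and the only complete pair of libraries sets their line difference. They thus repeat the ratios at single times given above, apart from scaling, and are no further check. Without either 48 h library and without either 24 h library, the line differences were -0.02 and 0.73 for TCF7. They were 0.39 and 0.07 for TOX, -0.13 and -0.18 for ID2, 0.17 and 1.00 for ID3 and -0.68 and 1.89 for BACH2. TOX, ID2 and ID3 thus had the same sign at both times, and TCF7 and BACH2 did not. The time difference of ZEB2 is likewise set by the line that stays complete. It was -0.02 and 0.00 without either ΔOGT-ISS library and -0.78 and -0.77 without either WT library. The cause of the other changes was not tested.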
